A study of Mus musculus with 6 samples.

Results

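Methionine tRNA genes were followed through 6 eCLIP libraries of tagged mouse Gtsf1. The genes were taken by name, as initiator (tRNA-iMet) or elongator (tRNA-Met) features of the nuclear tRNA class. This gave 23 genes, 10 initiator and 13 elongator, of 869 nuclear tRNA genes and 1753368 features with any read. Gtsf1, also called Asterix, carries zinc fingers and acts in transposon silencing by piRNAs, and eCLIP sequences the RNA that ultraviolet light has joined to a purified protein. P19 cells, a mouse embryonal carcinoma line, received a pEF plasmid by transient transfection, from which the EF-1alpha promoter drove Gtsf1 with a C-terminal TEV-Strep tag, and all 6 libraries came from such cells. Crosslinked cells had been irradiated at 254 nm, lysates were cut with RNase I, and Gtsf1 was drawn out by its tag on MagStrep type 3 XT beads while part of the lysate was kept as input. Irradiated (crosslinked) cells gave 2 pull-down and 2 input libraries, called UV pull-downs and UV inputs here. Cells that were not crosslinked gave 1 of each, the no-UV pull-down and the no-UV input. The labels do not say whether the replicates came from separate cultures, so p-values measure only the spread between these libraries. No-UV values have no replicates.

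Animal cells carry a pair of cytosolic methionine tRNAs that read the same codon. The initiator is delivered by the factor eIF2 to the small ribosomal subunit and starts each protein, while the elongator is delivered by eEF1A and serves all internal methionine codons. Both are made by RNA polymerase III, trimmed at both ends, modified, exported and charged by the same methionyl-tRNA synthetase. RefSeq lists 16 methionine tRNA genes of 72 or 73 bases in build GRCm38.p6, of which 11 lie on chromosome 13 between 21167604 and 23530419. RefSeq names them by symbols that the files do not pair with their own names, so no position is given for a single gene. The lengths of the 23 counted features are not in the files, so the levels in RPM are not per length, and the sums cover different numbers of genes.

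The libraries held between 13168593 and 18418166 reads, so that 1 read was worth between 0.0543 and 0.0759 RPM, the unit of reads scaled to a common library total. The Gtsf1 pre-mRNA feature had 46.9 and 46.3 RPM in the UV inputs and 102.0 and 210.3 RPM in the UV pull-downs. It had 49.2 RPM in the no-UV input and 40.6 RPM in the no-UV pull-down. All 8 embryonal carcinoma markers had reads in every input, with a summed level of 81.4 to 103 RPM. The summed level of 5 fibroblast markers was 0.866 to 1.83 RPM, that of 3 neuron markers 2.33 to 2.48 RPM, and that of 4 endoderm markers 0.0707 to 0.676 RPM, with Afp and Sox17 at 0. In the 3 pull-downs the endoderm sum was higher, at 2.61 to 4.11 RPM, and the embryonal carcinoma sum lower, at 57.9 to 71.7 RPM. The fibroblast sum there was 1.23 to 2.03 RPM and the neuron sum 1.28 to 2.57 RPM, both overlapping the inputs. The part of these markers in the results was not tested. Nuclear tRNA features took up 0.105% of reads in each UV input, 0.338% and 0.903% in the UV pull-downs, 0.114% in the no-UV input and 0.0915% in the no-UV pull-down.

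Both methionine tRNAs rose in the UV pull-downs. Without crosslinking, the initiator was also 10.4 times its input, and the elongator 2.56 times. The initiator sum was 4.12 RPM in UV input 1 and 2.66 RPM in input 2, from 72 and 49 reads. It was 24.4 RPM in UV pull-down 1 and 33.6 RPM in pull-down 2, from 394 and 532 reads. Each pull-down was thus well above each input. The elongator sum was 1.26 RPM in UV input 1 and 0.869 RPM in input 2, from 22 and 16 reads. It was 8.48 RPM in UV pull-down 1 and 20.2 RPM in pull-down 2. Here too the pull-downs stood clear of the inputs, and the elongator differed more between the pull-downs, by a ratio of 2.38 against 1.38 for the initiator.

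**Figure D1:**
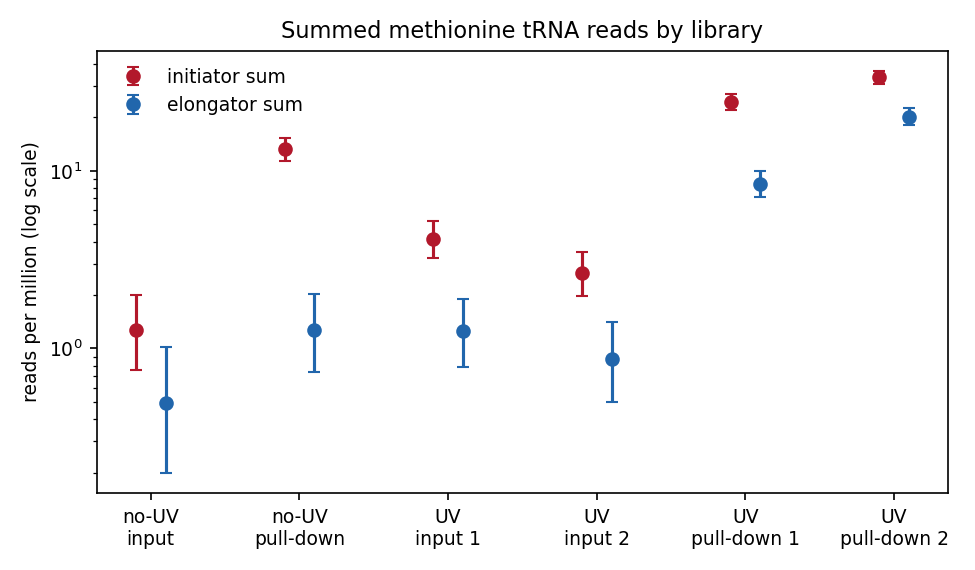
The summed level of the 10 initiator (red) and 13 elongator (blue) methionine tRNA genes in each library, in RPM (reads per library, scaled to a common total) on a log axis, with bars for 95% exact Poisson intervals, which cover counting error only (UV, crosslinked; no-UV, not crosslinked). The initiator reached 24.4 and 33.6 RPM in the UV pull-downs and 13.3 RPM in the no-UV one, where the elongator had 1.27 RPM.

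The initiator sum averaged 29.0 ± 6.48 RPM in the UV pull-downs and 3.39 ± 1.03 RPM in the UV inputs (SD, n = 2 each). edgeR's quasi-likelihood test, fitted over 39664 features with tRNA genes summed by anticodon, gave a log2 ratio of 3.19 (SE 0.28, Benjamini-Hochberg adjusted p 0.000636). The elongator sum averaged 14.3 ± 8.29 RPM (SD, n = 2) in the UV pull-downs against 1.06 ± 0.277 RPM (SD, n = 2) in the UV inputs. Its log2 ratio in the same edgeR fit was 3.84 (SE 0.50, adjusted p 0.00409). In that fit 6.07% of all features were called higher and 3.59% lower, at an adjusted p under 0.05. The elongator ratio depended on the library, at 3.07 without UV pull-down 2, and was 2.79 with limma on log2(RPM + 1), a scale that shrinks the ratios of low features. Both calls ended without a filter on low values, where 1682755 features were tested (adjusted p 0.315 for the initiator and 0.648 for the elongator, edgeR).

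The no-UV libraries show the pull-down of tagged Gtsf1 without crosslinking. The initiator sum was 1.27 RPM in the no-UV input (95% exact Poisson interval 0.754 to 2.01, 18 reads). It was 13.3 RPM in the no-UV pull-down (11.4 to 15.4, 175 reads). The pull-down was thus 10.4 times the input, with an exact 95% interval of 6.42 to 18.04. Such intervals cover counting error only, and they treat reads as separate molecules, which PCR copies are not. The UV ratio was 5.93 (4.60 to 7.73) for same-numbered libraries 1 and 12.6 (9.42 to 17.3) for libraries 2. With the numbers crossed, the UV ratios were 9.19 and 8.15, and the ratio of the UV means was 8.56, so whether the no-UV ratio lay above or between the UV ratios depends on how pull-downs and inputs are matched. The elongator sum was 0.495 RPM in the no-UV input (0.199 to 1.02, 7 reads). It was 1.27 RPM in the no-UV pull-down (0.733 to 2.04), a ratio of 2.56 with an interval of 1.03 to 7.44, which overlaps that of the initiator. The elongator's UV ratios were 6.73 (4.28 to 11.1) and 23.3 (14.1 to 41.2). With the numbers crossed they were 9.76 (5.81 to 17.6) and 16.0 (10.4 to 26.0). All were above the no-UV ratio, and the intervals of both ratios with UV pull-down 1 overlap the no-UV interval.

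The difference between the UV and the no-UV log2 ratio was tested with edgeR over all 6 libraries, in which the lone no-UV libraries are assumed to vary like the UV ones. It was -0.29 for the initiator (SE 0.54, adjusted p 0.803) and 2.37 for the elongator (SE 1.44, adjusted p 0.474). The initiator's difference turned above 0 with limma (0.12) and without UV input 1 (0.042), and the elongator's was 1.60 without UV pull-down 2. Neither passed the threshold, and a p that misses it does not show that the ratios were alike. edgeR called 0% of all 39664 features in this comparison, with 4607 higher and 813 lower at an unadjusted p under 0.05, while DESeq2 called 13 higher and 157 lower, neither methionine sum among them. The median difference over all features was 0.56, and with TMM factors, which moved that median to -0.01, the initiator stood at -0.85 and the elongator at 1.81. By level, the mean UV pull-down held 2.18 times the initiator of the no-UV pull-down, and the mean UV input 2.67 times that of the no-UV input. For the elongator these ratios were 11.3 in the pull-down, from 8.48 and 20.2 RPM against 1.27 RPM, and 2.15 in the input.

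The balance of both tRNAs inside each library needs no scaling between libraries. The initiator made up 76.6% of methionine tRNA reads in UV input 1 (95% Wilson interval 67.1 to 84.0%) and 75.4% in input 2 (63.7 to 84.2%). It made up 74.2% in UV pull-down 1 (70.3 to 77.7%) and 62.5% in pull-down 2 (59.1 to 65.6%). Its share was 72.0% in the no-UV input (52.4 to 85.7%) and 91.3% in the no-UV pull-down (86.3 to 94.4%). The no-UV pull-down was the highest of the 6 libraries and UV pull-down 2 the lowest. These intervals cover counting error only, and those of the 2 UV pull-downs do not overlap each other, so the spread between libraries is wider than the intervals.

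**Figure D2:**
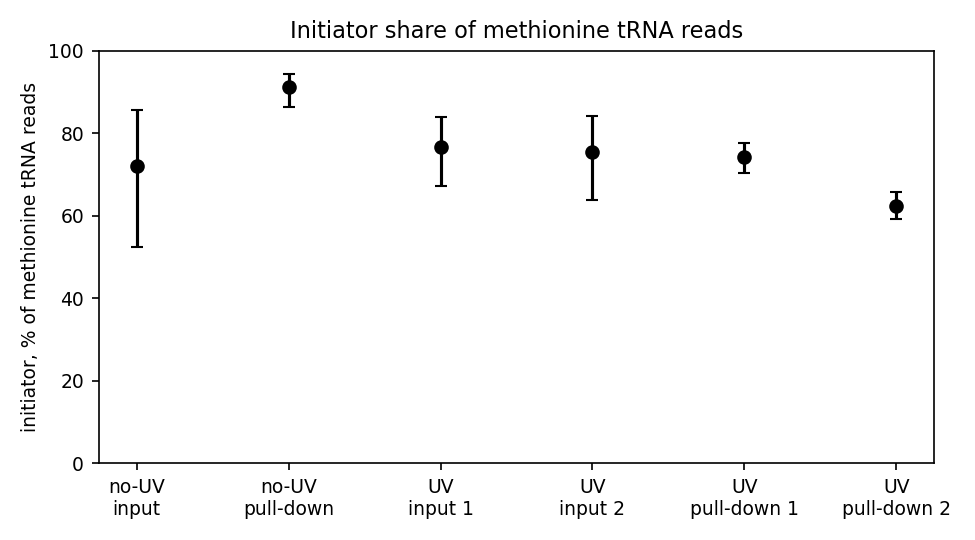
The share of methionine tRNA reads that belonged to initiator genes, in percent, in each library, with bars for 95% Wilson intervals (UV, crosslinked; no-UV, not crosslinked). The share was 91.3% in the no-UV pull-down and between 62.5% and 76.6% in the other 5 libraries.

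On the log2 scale, initiator over elongator averaged 1.13 ± 0.56 in the UV pull-downs and 1.66 ± 0.07 in the UV inputs (SD, n = 2 each), a difference of -0.53. The two-sided exact permutation test gave p = 0.33, the smallest that 2 libraries against 2 allow. Without UV pull-down 2 the difference was -0.14, and without pull-down 1 it was -0.93, so its size rested on pull-down 2. On the log2(RPM + 1) scale it was -0.0094. The difference between the no-UV pull-down and its input was 2.03 in the other direction, with 1 library on each side and no test.

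Single genes were then examined. The counting split reads that matched several genes into fractions, and near-identical copies are uncertain as single genes. Each initiator sum was a whole number of reads, to within 0.01. The elongator sums were whole in the inputs and 0.33 reads from a whole number in the 3 pull-downs. The 7 copies tRNA-iMet-CAT-1-1 to 1-7 had almost the same values in every library. Their mean was 8.91 and 5.61 reads in the UV inputs, 48.0 and 63.0 reads in the UV pull-downs, 2.48 reads in the no-UV input and 21.6 reads in the no-UV pull-down. The range over the copies was at most 6.87% of their mean. The 6 copies named by rule, 1-1 to 1-6 (1-7 tied with 1-1), had 2.90 to 3.11 RPM in UV pull-down 1 and 3.92 to 4.09 RPM in pull-down 2. They had 0.495 to 0.529 RPM in UV input 1 and 0.298 to 0.306 RPM in input 2, so that pull-downs and inputs lay apart for each copy. The 7 copies together gave 86.6% and 80.1% of the initiator reads in the UV inputs and 85.3% and 82.9% in the pull-downs.

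**Figure D3:**
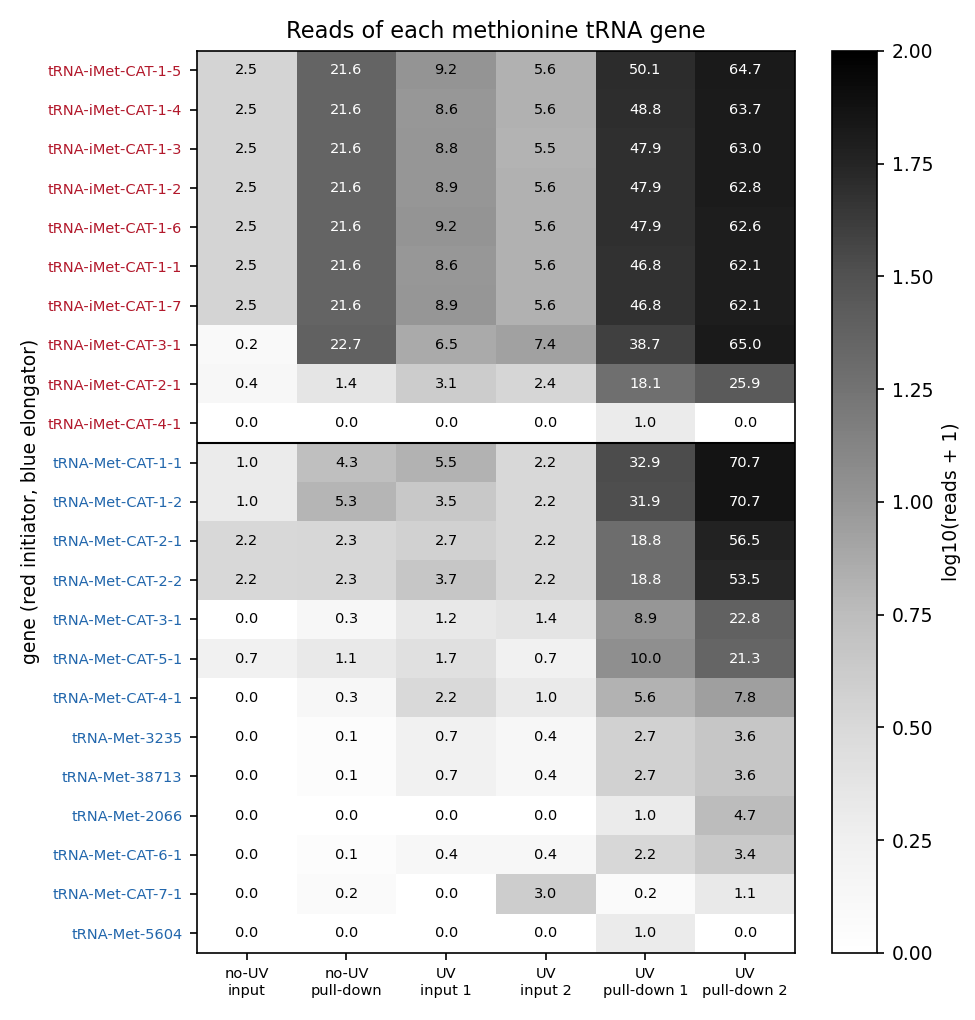
Reads of each of the 23 methionine tRNA genes (rows, initiator in red and elongator in blue) in each of the 6 libraries (columns; UV, crosslinked; no-UV, not crosslinked), printed in the cells and shaded by log10(reads + 1). The 7 copies of tRNA-iMet-CAT-1 carry nearly equal reads in every library, and tRNA-iMet-CAT-3-1 has 0.25 reads in the no-UV input against 22.7 in the no-UV pull-down.

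tRNA-iMet-CAT-3-1 was singled out after its values were seen. It had 6.49 and 7.36 reads in the UV inputs and 38.7 and 65.0 reads in the UV pull-downs. Its reads came to between 0.728 and 1.31 times those of the average copy of tRNA-iMet-CAT-1 in these 4 libraries and to 1.05 times in the no-UV pull-down. In the no-UV input it had 0.25 reads, 0.101 times the average copy, where all 18 initiator reads are few. tRNA-iMet-CAT-2-1, also named after its values were seen, had 3.13 and 2.38 reads in the UV inputs and 18.1 and 25.9 in the pull-downs. That was 0.351 to 0.424 times the average copy of tRNA-iMet-CAT-1. In the no-UV input and pull-down it had 0.375 and 1.36 reads, or 0.151 and 0.0631 times the average copy, both under the floor of 3 reads. The tenth initiator gene, tRNA-iMet-CAT-4-1, had 1 read in UV pull-down 1 and none elsewhere, which allows up to 3 reads, or 0.163 to 0.228 RPM, in each other library.

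Among elongators, 2 pairs of copies carried most reads. tRNA-Met-CAT-1-1 had 0.315 and 0.118 RPM in the UV inputs, 2.04 and 4.47 RPM in the UV pull-downs, and 0.0707 and 0.329 RPM in the no-UV input and pull-down. tRNA-Met-CAT-1-2 had 0.20 and 0.118 RPM in the UV inputs, 1.98 and 4.47 RPM in the UV pull-downs, and 0.0707 and 0.405 RPM in the no-UV input and pull-down. Both UV pull-downs lay above both inputs for each copy, and pull-down 2 was the higher. tRNA-Met-CAT-2-1 had 0.152 and 0.120 RPM in the UV inputs, 1.16 and 3.57 RPM in the UV pull-downs, and 0.153 and 0.177 RPM in the no-UV input and pull-down. tRNA-Met-CAT-2-2 had 0.210 and 0.120 RPM in the UV inputs, 1.16 and 3.38 RPM in the UV pull-downs, and the same no-UV values as its sister copy. As pairs, tRNA-Met-CAT-1 went from 2.00 to 9.67 reads between no-UV input and pull-down, and tRNA-Met-CAT-2 from 4.33 to 4.65 reads. tRNA-Met-CAT-3-1 had 1.16 and 1.38 reads in the UV inputs and 8.94 and 22.8 in the pull-downs, with 0.325 reads in the no-UV pull-down and none in its input. tRNA-Met-CAT-5-1 had 1.66 and 0.708 reads in the UV inputs, 9.99 and 21.3 in the UV pull-downs, and 0.667 and 1.12 in the no-UV input and pull-down.

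The other 7 elongator genes held at most 7.81 reads in any library. Among them are all 4 genes with no anticodon in the name, of which tRNA-Met-3235 and tRNA-Met-38713 had the same values in each library. tRNA-Met-CAT-7-1 and tRNA-Met-5604, with at most 3 reads, were the elongators whose UV pull-downs were not both above both inputs. Over all 23 genes, this separation held for 20 (9 initiator and 11 elongator), against 12.3% of all features with a read in a UV library. The no-UV pull-down was above its input in 20 of the 23, against 20.6% of all features. In both counts the 7 copies of tRNA-iMet-CAT-1 carry split shares of the same reads, so the genes are not separate observations. All 23 had 3 reads or fewer in the no-UV input, and 10 of the 20 (8 initiator and 2 elongator) had more than 3 in the no-UV pull-down, so the other 10 rest on values under that floor.

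In the fit of single features, 12 of the 23 genes reached a mean of 1 RPM in the 4 UV libraries and were tested, 8 initiator and 4 elongator. All 12 had under 1 RPM in both UV inputs and reached this minimum through the pull-downs, so their count is given without further reading. edgeR called all 12 higher, beside 6.44% of all 39872 features, with log2 ratios of 3.10 to 3.23 for initiator genes and 3.78 to 4.30 for elongator genes (adjusted p 0.000956 to 0.0309). Without UV pull-down 2 the 4 elongator genes had log2 ratios of 3.23 (tRNA-Met-CAT-1-1), 3.59 (1-2), 3.09 (2-1) and 2.84 (2-2). That of tRNA-Met-CAT-1-1 was 4.89 without UV input 1 and 3.32 without UV input 2, and that of tRNA-Met-CAT-2-1 was 4.70 without UV pull-down 1. The calls of tRNA-Met-CAT-2-1 and 2-2 ended with a filter at 0.2 RPM (adjusted p 0.0585 and 0.0597, edgeR), and all 12 calls ended without a filter. In 10 of the 13 elongator genes and 1 of the 10 initiator genes, both UV inputs held 3 reads or fewer. The UV and no-UV ratios of single genes did not differ past the threshold for any of the 12 in edgeR (adjusted p 0.450 to 0.858, none with an unadjusted p under 0.05).

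The methionine sums were set beside the other nuclear tRNAs, summed by anticodon into 50 tested groups, of which edgeR called 48, all but Glu-TTC and Asp-GTC, higher in the UV pull-down. In 9 of the 50 both UV inputs were under 1 RPM, so these passed the minimum through the pull-downs, and the counts, median and ranks of the groups are given as a description. The median log2 ratio of these 50 groups was 3.97, and the methionine sums ranked 29 (elongator, 3.84) and 39 (initiator, 3.19) of 52. On the log2(RPM + 1) scale the UV log2 ratio was 2.78 for the initiator, 2.79 for the elongator and 2.88 in the median other group. On the same scale the initiator's no-UV log2 ratio of 2.65 ranked 5 of 52, after Lys-TTT (4.33), His-GTG (4.00), Pro-AGG (3.50) and Pro-TGG (2.75). The elongator's 0.60 ranked 30, and the median of the 50 other groups was 0.76. The order depends on the scale, because in the edgeR fit over 6 libraries the no-UV log2 ratio was 3.48 for the initiator (rank 11) and 1.47 for the elongator (rank 27). Above the initiator there lay groups with fewer no-UV pull-down reads, such as Lys genes with no anticodon in the name (12.4). Groups with more, such as Lys-TTT (326), lay there too. In the edgeR fit the UV minus no-UV difference was below 0 in 5 of the 52 groups, which were Ser genes with no anticodon in the name, Pro-AGG, Lys-TTT, the initiator and Pro-CGG, while its median over the 50 other groups was 2.32. On the log2(RPM + 1) scale it was below 0 in 1 group, Pro-AGG, and above 0 for the initiator. Of the 50, 23 had an unadjusted p under 0.05 for that difference and none passed after adjustment (edgeR). These ranks describe libraries that the groups share.

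**Figure D4:**
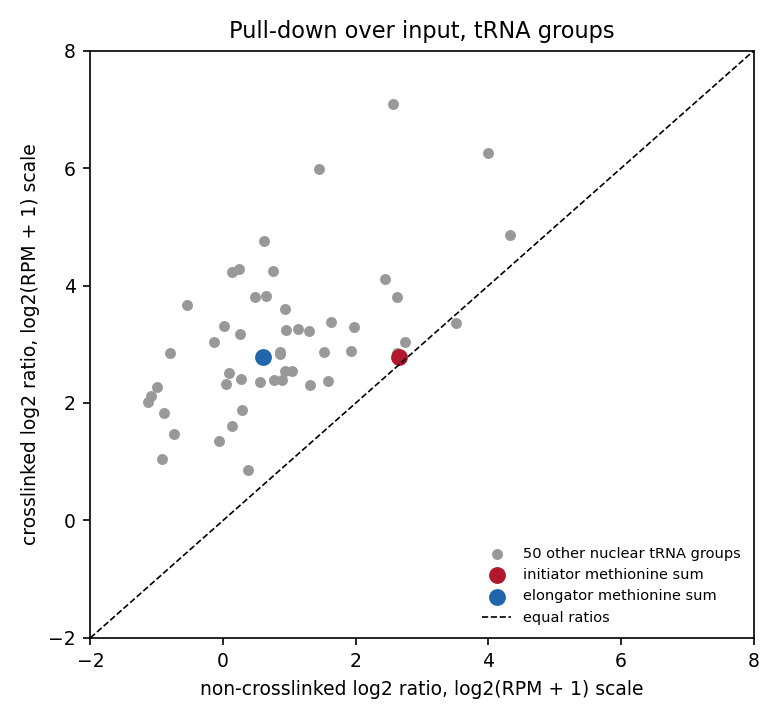
Log2 ratio of pull-down over input for 52 nuclear tRNA groups, without crosslinking (x axis, 1 library on each side) and with crosslinking (y axis, mean of 2 libraries on each side), both on the log2(RPM + 1) scale, with a dashed line of equal ratios. The initiator (red) lies next to the line at 2.65 and 2.78, and the elongator (blue) far above it at 0.60 and 2.79.

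As a share of all nuclear tRNA reads, the initiator was highest in the no-UV pull-down, at 1.45% (95% Wilson interval 1.25 to 1.68%) against 0.112% in its input (0.0709 to 0.177%). In the UV libraries it held 0.394% and 0.253% in the inputs, 0.724% in pull-down 1 and 0.372% in pull-down 2. The initiator share in UV pull-down 2 thus lay between the inputs, and only pull-down 1 was above both. The elongator held 0.120% and 0.0827% of tRNA reads in the UV inputs and 0.251% and 0.224% in the pull-downs, which lay above both inputs. It held 0.0436% in the no-UV input and 0.138% in the no-UV pull-down.

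Features with the most similar pattern were found by the root-mean-square difference of log2(RPM + 1) values, centred for each feature over the 6 libraries. For the elongator sum the nearest tRNA groups were Thr-TGT (0.114), Leu-CAA (0.204), Ser-CGA (0.224), Arg-CCT (0.285) and Leu-TAG (0.338). For the initiator sum they were Cys-GCA (0.316), Pro-CGG (0.352), Leu-CAG (0.363), Trp-CCA (0.377) and Arg-TCT (0.387). The distance between both methionine sums, 0.684, was larger than any of these. Among 1993 features outside the nuclear tRNAs averaging 10 RPM or more, the nearest to the initiator were the ribosomal RNA feature SSU-rRNA_Hsa-45 (0.314), Nrip1_intron2_5 (0.324), the snoRNA features Gm24016 (0.327) and Gm23969 (0.336) and the piRNA cluster Gm11635.1 (0.385). The level of Gm24016 was 3.75 RPM in the no-UV input and 44.1 RPM in its pull-down. The nearest to the elongator were mir-5126 (0.394), the piRNA cluster chr5-qG1.1.1 (0.505), the mitochondrial glutamate tRNA (0.543) and the snoRNA features Gm24826 (0.556) and Gm24826-2 (0.557).

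Transcripts of 24 genes whose products charge, modify, process, export or deliver methionine tRNA, or act with it in starting translation, were read from the fit of single features. Of these, 23 had a pre-mRNA feature and 12 were tested. edgeR called 2 lower and none higher (none higher at an unadjusted p under 0.05 either), beside 3.5% of all features called lower and 11.5% of the tested pre-mRNA features. The log2 ratio was below 0 in all 12, as it was in 93.0% of the tested pre-mRNA features and 75.0% of all tested features. Of the 11 genes with a feature that were not tested, Eif2b4 alone had a higher mean in the pull-downs. Eif1, Eif2s1 and Eif2a averaged under 1 RPM in the UV pull-downs and passed the minimum through the inputs, so these counts are a description. Eif2s3x, a subunit of eIF2, had 3.32 and 3.37 RPM in the UV inputs and 1.86 and 1.39 RPM in the pull-downs (log2 ratio -0.95, SE 0.18, adjusted p 0.0240). Eif1, a factor of start codon choice, had 3.84 and 2.93 RPM in the UV inputs and 0.465 and 1.14 RPM in the pull-downs (log2 ratio -1.95, SE 0.33, adjusted p 0.0141). For both, the pull-downs lay below the inputs, and the no-UV log2 ratios on the log2(RPM + 1) scale were -0.55 and -1.34. Mars, now Mars1, the methionyl-tRNA synthetase, had 19.3 and 15.6 RPM in the inputs and 13.5 and 9.54 RPM in the pull-downs and did not pass the threshold (log2 ratio -0.51, SE 0.21, adjusted p 0.229). The median log2 ratio of the 12 was -0.79, that of all tested features -0.21 and that of all 2561 tested pre-mRNA features -0.52. Without UV pull-down 2, 1 of the 12 was called lower, without pull-down 1 it was 4, and without input 2 it was 5. With TMM factors or DESeq2 it was 1, with all reads as library size 5, and with limma on log2(RPM + 0.1) or the replicate block 4. Without a filter it was 0, as it was with a filter at 5 RPM, which Eif1 and Eif2s3x did not pass.

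The mitochondrial methionine tRNA, mt-Tm, which serves both initiation and elongation inside mitochondria, had 28.6 and 15.7 RPM in the UV inputs and 31.0 and 28.4 RPM in the UV pull-downs. These groups overlapped, and edgeR gave a log2 ratio of 0.52 (SE 0.28, adjusted p 0.343). That ratio was 0.99 without UV input 1 and 0.16 without UV input 2. The no-UV level of mt-Tm was 20.6 RPM in the input and 11.8 RPM in the pull-down, the direction opposite to that of both nuclear methionine sums. Its UV minus no-UV difference was 1.22 (SE 0.51, adjusted p 0.367, edgeR).

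The authors' deposited table, whose formula is not stated, gives 1 enrichment ratio for each of 13 of the 23 methionine tRNA genes. tRNA-iMet-CAT-3-1 is among those not listed. In the authors' deposited table the 8 initiator genes ranged from 7.08 to 16.2 and the 5 elongator genes from 36.5 to 45.7, so that the kinds did not overlap. The median of all 322 tRNA features in the authors' deposited table was 20.9, between both kinds, and that of all 216085 listed features was 1.37. The highest initiator gene in the authors' deposited table was tRNA-iMet-CAT-2-1 (16.2). The 7 others, all copies of tRNA-iMet-CAT-1 that share split reads, had at most 8.45.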

How the data were processed

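The authors deposited, for each of the 6 libraries, a table of expected counts for each feature, in which reads that match several features appear as fractions, and the same values as RPM, scaled to all reads with unannotated ones included. The authors also deposited a table with 1 enrichment ratio per feature. Per the submitters' processing notes, bcl2fastq 2.19, STAR 2.5.2b, bedtools 2.29.0 and build mm10 were used; annotation, strand and handling of PCR duplicates are not given in the sources used here. Unannotated reads (6.99% to 14.4% of a library) were left out of library sizes and tests and kept in RPM.

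Rounded counts went into edgeR 4.0.16 (R 4.3.3; quasi-likelihood test after estimateDisp, then glmQLFit with legacy = TRUE) on features averaging 1 RPM or more in the 4 UV libraries, with annotated reads as library size and Benjamini-Hochberg adjustment over all tested features (called under 0.05). The SE is the log2 ratio divided by the square root of F. A second table summed tRNA genes by amino acid and anticodon. The fits were also run on simulated counts with a fixed dispersion and no split reads, which does not test the calls made here. Alternatives used limma 3.58.1, DESeq2 1.42.0 and the settings listed in the closing section. Further ones left out rRNA, fitted all 6 libraries jointly or, for the balance, left out the most abundant gene of each sum. Poisson and Wilson intervals are at 95%, and 3 reads were the floor for a count of 0. The members, gene lists and tests were chosen with earlier results of these data known. By rule, the 6 initiator and 6 elongator genes with the highest pull-down mean (at least 10 reads in any library, or 1 RPM) were given by sample, with the 5 nearest features of each kind, Mars, mt-Tm, each partner past the threshold and Gtsf1.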

Additional observations from a re-analysis of the deposited data

Results flagged for a closer look

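The balance of initiator over elongator moved in opposite directions with and without crosslinking. Its log2 value was lower in both UV pull-downs than in both UV inputs, with a mean difference of -0.53, and higher in the no-UV pull-down than in the no-UV input, with a difference of 2.03. The first difference was -0.14 without UV pull-down 2 and -0.0094 on the log2(RPM + 1) scale. The contrast between these differences was not tested.

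The Gtsf1 pre-mRNA feature was higher in both UV pull-downs than in both UV inputs, with a mean difference of 1.65 on the log2 scale of RPM, and lower in the no-UV pull-down, with a difference of -0.28. Tested over all 6 libraries with edgeR, the contrast was 2.01 (SE 0.61, adjusted p 0.335).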

How the results depend on the processing

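The log2 ratios of both UV sums kept their direction and their side of the threshold under every alternative run except the absence of a filter, at 3.19 for the initiator (adjusted p 0.315) and 3.84 for the elongator (adjusted p 0.648). They ranged from 2.92 to 3.52 (initiator) and 3.07 to 4.35 (elongator) when 1 UV library was left out. With the replicate number as a block they were 3.18 and 3.78, no methionine call changed, and 44 in place of 48 other tRNA groups were called; 2 numbered pairs (deviations correlated at 0.111) were not taken as pairing. tRNA-Met-CAT-2-1 and 2-2 were not called with a filter at 0.2 RPM (adjusted p 0.0585 and 0.0597). edgeR's newer quasi-likelihood method was added after the data were seen. The UV minus no-UV difference of the initiator changed sign with limma (0.12), ran from -0.56 to 0.042 with 1 UV library left out (above 0 only without UV input 1), and was -0.30 with the replicate block; that of the elongator was 1.60 to 2.88 over libraries left out and 2.32 with the block. Neither was called under any alternative. The count of 12 methionine genes called higher was 0 with a filter at 5 RPM, which none passed, and 0 of 23 without a filter, where 0 of 67 other tRNA groups were called. The count of 2 partner genes called lower was 1 with TMM factors and with DESeq2, and 5 with all reads as library size. It was 4 with limma on log2(RPM + 0.1) and with the replicate block. It was 0 without a filter and with a filter at 5 RPM, which neither of the 2 genes passed. The pull-down minus input difference of initiator over elongator was -0.0094 on the log2(RPM + 1) scale, -0.53 with the replicate block and -0.93 to -0.14 with a library left out. The cause of these changes was not tested. Depth was low for the elongator sum, whose inputs held 7 to 22 reads.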
